A study of Mus musculus with 61 samples.

Results

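The genes described here encode proteins of central myelin and the enzymes and membrane proteins that oligodendrocytes need to build it. The 9 genes named for this set are Mbp, Mobp, Mog, Mag, Cnp, Mal, Cldn11, Ugt8a and Ermn. They were chosen by name, and each is represented by its probe with the highest mean signal. The RefSeq identifiers of the array named a probe for 8 of the 9, out of 16358 genes named in all. Ermn, which encodes the cytoskeletal protein ermin, matched no probe by this route and was not analysed here.

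Whole brains of 6 male C57BL/6J mice, each 8 weeks old, were cut along 1 direction per mouse into fractions of 1 mm, and the RNA of each of the 61 fractions was hybridised to its own array. The S and So brains were cut sagittally from left to right (9 and 10 fractions), the C and Co brains coronally from posterior to anterior (13 and 16) and the H and Ho brains horizontally from dorsal to ventral (6 and 7), with the planes of So, Co and Ho slightly oblique. All 6 mice were perfused with RNAlater, no treatment or allele sets them apart, and each plane is represented by 2 mice. The study paired 56 of the fractions into 28 pairs of matching position, 1 from each mouse of a plane, and chose the pairs with the help of these arrays. A pair is named here by its plane and position, from c1 at the caudal end to c13 at the rostral end, s1 to s9 from left to right, and h1 to h6 from dorsal to ventral.

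In the central nervous system, oligodendrocytes wrap axons with many turns of their membrane, and the compacted wraps insulate the axon between the nodes of Ranvier. Myelin is dense in the brainstem, the cerebellar white matter and the large forebrain tracts, and sparse in the olfactory bulb and in the upper layers of the cortex. Mbp and Mobp are basic proteins that hold together the cytoplasmic faces of compact myelin, and Mal is a small proteolipid of myelin membrane traffic. Mog lies on the outermost surface of the sheath, and Mag is the adhesion molecule of the innermost wrap, facing the axon. Cldn11 forms the tight junctions between the wraps. Cnp is an enzyme of the uncompacted myelin channels, and Ugt8a is the transferase that makes galactosylceramide, a main lipid of the sheath.

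Along the coronal axis all 8 measured genes were highest in the most caudal fraction and lowest in 1 of the 2 most rostral fractions, and they were also higher near the midline than at the outer sides and higher ventrally than dorsally. Every value below is a log2 level, the log2 intensity of the probe minus the 75th percentile of its array, so that a difference of 1 is a doubling relative to that percentile. The probes differ in how brightly they bind, and levels are therefore compared between fractions for each probe and never between probes. The probes of the 8 genes were well above background on all 61 arrays and saturated on none. In these bulk samples a smaller number of oligodendrocytes cannot be told apart from less RNA in each. In the tests along the axes, the spread behind each p-value is that between the 2 fractions of a pair, pooled over all planes. The fit took the pairs as independent, although fractions of 1 mouse deviated together. The p-values therefore rest on matched fractions and not on a count of mice, of which each plane has 2. Because the pairs were chosen for their likeness on these arrays, the spread and the p-values can be too small.

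The promoters of Mog, Mobp and Ugt8a, the 3 genes with the largest caudal to rostral differences by their brightest probes, are shown because these genes moved together over all 3 axes. Each line gives the 250 bases before the RefSeq start (GRCm38.p6), 5′ to 3′ on the strand of the gene. Mog lies on the minus strand at chr17:37023399-37023648, Mobp on the plus strand at chr9:120149492-120149741 and Ugt8a on the minus strand at chr3:125938653-125938902. Capitals mark matches to the SOX-type motif ACAANG on either strand, a form of the site bound by SOX factors such as SOX10, which is known as a regulator of myelin genes.
Mog: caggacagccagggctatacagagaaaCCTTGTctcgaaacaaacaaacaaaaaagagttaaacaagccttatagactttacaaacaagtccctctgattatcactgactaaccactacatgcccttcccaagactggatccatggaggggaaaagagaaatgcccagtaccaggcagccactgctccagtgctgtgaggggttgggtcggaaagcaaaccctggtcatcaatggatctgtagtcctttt
Mobp: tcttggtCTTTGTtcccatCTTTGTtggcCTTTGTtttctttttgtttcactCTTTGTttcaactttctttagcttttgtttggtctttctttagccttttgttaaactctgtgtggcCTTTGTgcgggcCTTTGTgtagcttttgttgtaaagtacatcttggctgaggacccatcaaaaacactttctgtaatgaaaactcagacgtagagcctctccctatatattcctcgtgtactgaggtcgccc
Ugt8a: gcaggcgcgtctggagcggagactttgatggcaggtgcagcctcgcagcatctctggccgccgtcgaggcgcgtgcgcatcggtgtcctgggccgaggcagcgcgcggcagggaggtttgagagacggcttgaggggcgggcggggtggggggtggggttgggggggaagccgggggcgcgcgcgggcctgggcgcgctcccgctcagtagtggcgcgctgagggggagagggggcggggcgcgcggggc
This motif occurred 6 times in the Mobp window, 1 time in that of Mog and 0 times in that of Ugt8a. It was present in the windows of 4 of the 7 members searched (Cnp, Mag, Mobp and Mog) and in 36.3% of all 32851 promoter windows of the same length, so its presence alone did not set the members apart. As many as 6 matches were found in 5 of the 32851 windows, 0.0152%. The number 6 was taken from the Mobp window itself, so this share is a description and no test. The E-box CANNTG, the core recognised by OLIG2 and other helix-loop-helix factors, was present in the windows of 3 of the 7 members (Cnp, Mag and Ugt8a) and in 66.2% of all windows. Overlapping matches of the motifs were each counted. A match describes letters and not binding.

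All 8 members varied over the 28 pairs in limma's moderated F test, with adjusted p-values between 8.64e-09 for Ugt8a and 6.96e-06 for Mbp. Of the 36573 probes tested 61.3% did so as well. The SD between the 2 fractions of a pair ranged from 0.19 for Cnp to 0.43 for Mog, and the SD of the pair means ranged from 0.47 for Cnp and Mbp to 0.77 for Mog. For each member the pair means thus spread more than matched fractions of 2 mice did. Pairs of different planes came from different mice. The F test and the spread of the pair means therefore hold differences between planes and mice beside those of position.

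The coronal series covered the longest axis. Mobp ran from 1.00 in C13 through a median of 3.29 to 4.49 in C1, and from 0.86 in Co16 through 2.92 to 4.38 in Co1. Mbp ran from 5.62 in C13 through 6.31 to 7.39 in C1, and from 5.32 in Co16 through 6.60 to 7.33 in Co1. Mal ran from 1.70 in C13 through 3.55 to 4.26 in C1, and from 1.42 in Co15 through 3.20 to 3.91 in Co1. The basic proteins and Mal thus had their highest value in the most caudal fraction of either brain and their lowest in 1 of the 2 most rostral fractions.

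The surface glycoproteins followed the same order. Mog ran from -1.54 in C13 through 0.81 to 2.06 in C1, a 12.10-fold range, and from -1.61 in Co16 through 0.22 to 1.75 in Co1. Mag ran from 3.93 in C13 through 5.27 to 6.23 in C1, and from 3.51 in Co15 through 5.47 to 6.47 in Co1. By these brightest probes the range of Mog along the C brain was the widest of the 8 members in any of the 6 brains. The second Mbp probe ranged wider there, 14.44-fold. C13, the low end of the C brain for all 8, was scanned on another day than C1 to C12, on a slide with H1 and H2. From C12 to C13 the members changed by -0.27 (Cldn11) to -1.74 (Mobp). The part of slide and scan day in that step was not tested. The tight junction gene Cldn11 ran from 1.58 in C13 through 2.75 to 3.73 in C1, and from 1.35 in Co15 through 2.86 to 3.86 in Co1. Among the enzymes, Cnp ran from 3.50 in C13 through 4.98 to 5.64 in C1, and from 3.46 in Co15 through 4.74 to 5.79 in Co1. Ugt8a ran from -0.23 in C13 through 1.39 to 2.56 in C1, and from -0.89 in Co16 through 1.11 to 2.38 in Co1. The highest fraction was C1 and Co1 for each of the 8.

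**Figure D1:**
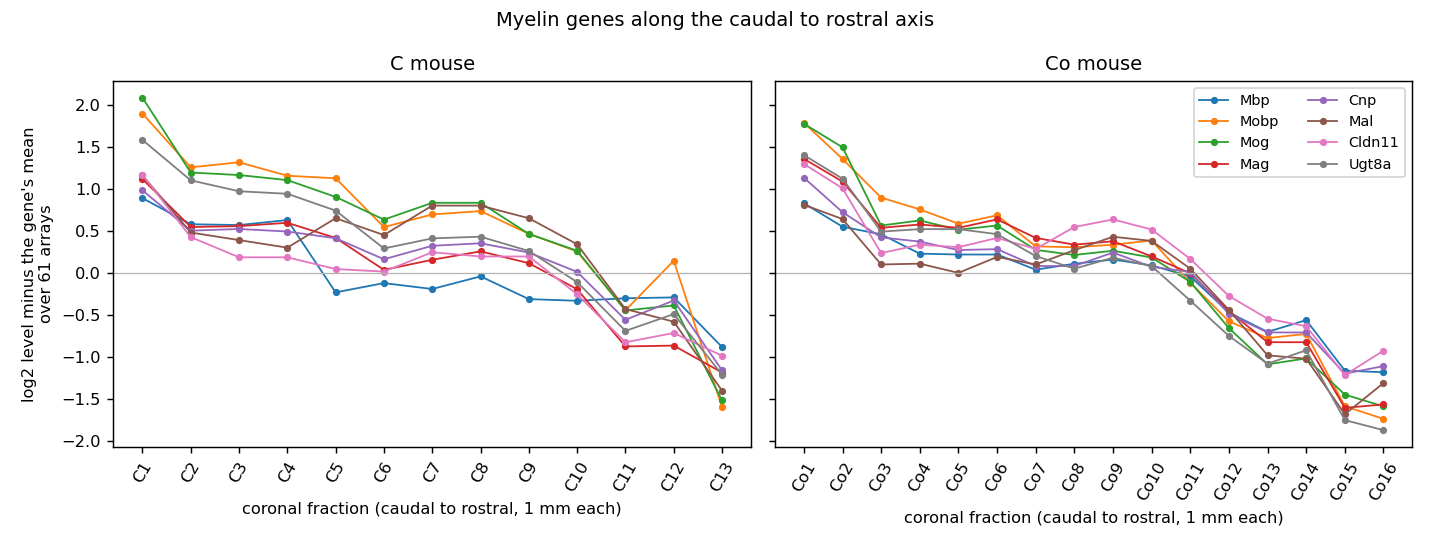
Log2 level of each of the 8 members minus its mean over the 61 arrays (vertical axis) in the coronal fractions from caudal to rostral (horizontal axis) of the C and Co mice, 1 point per array. All 8 lines are highest in C1 and Co1 and lowest in C13 and in Co15 or Co16, and the line of Mbp drops between C4 and C5.

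The 4 caudal pairs (c1 to c4) were higher than the 4 rostral pairs (c10 to c13) for 8 of 8 members, against 27.5% of all probes tested that were higher caudally. The median difference of the members was 1.27 on the log2 scale, beside 0.10 for all probes. Scaling the arrays to their medians moved the median of all probes to -0.05 and the share of all calls that were higher caudally from 57.7% to 40.6%, and all 8 members were still called higher. By these probes Mog was 3.38-fold higher caudally (1.76 ± 0.21, SE, adjusted p = 2.99e-08), Mobp 3.32-fold (1.73 ± 0.17, adjusted p = 2.62e-10) and Ugt8a 3.21-fold (1.68 ± 0.14, adjusted p = 1.94e-11). Mag was 2.72-fold higher (1.44 ± 0.13), and Cnp, Cldn11, Mal and Mbp lay between 2.03-fold and 2.12-fold (1.02 to 1.09). The order changed with the probe: the second probes gave 3.57-fold for Mag (1.84 ± 0.18), 3.46-fold for Mbp (1.79 ± 0.23) and 2.88-fold for Mobp (1.53 ± 0.19). Whether the members differed from each other in the size of the difference was not tested. For 7 of 8 members the 8 caudal fractions did not overlap the 8 rostral ones, beside 6.25% of all probes, and the exception was Mal.

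The difference was positive for 8 of 8 members in each coronal brain alone. Its median was 1.33 in C, with a range of 1.10 to 1.91, and 1.23 in Co, with a range of 0.93 to 1.65. A test of whether it differed between the 2 coronal mice called 0 of the 8 members (adjusted p 0.484 to 0.911), beside 3.31% of all probes. Most slides held neighbouring fractions of 1 brain. In 4 of the 7 slides that held coronal fractions of 1 brain, the most caudal fraction was higher than the most rostral one for 8 of 8 members, with median differences of 0.49 to 0.89. On the slide with C9 to C12 the count was 7 of 8 (median 0.81). On the 2 slides from the middle of the brain it was 5 of 8 in C5 to C8 (median 0.07) and 6 of 8 in Co5 to Co8 (median 0.19). On these 2 slides the members went both ways, with caudal minus rostral differences of -0.19 to 0.39 in C5 to C8 and of -0.27 to 0.46 in Co5 to Co8. With the slide as a fixed block, 0 of the 8 caudal to rostral differences passed the threshold. Most of the axis lies between slides, so slide and position cannot be told apart there. The 8 caudal to rostral values in that fit were 0.46 for Mbp and between 0.89 and 1.52 for the others. With the slide as a random block (correlation of 0.54 between arrays of a slide), all 8 caudal to rostral calls were kept.

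Between the caudal and the middle coronal fractions the members differed in direction. In C, the 2 highest values of Mal after that of C1 were in C7 and C8 (3.90 each), above C2 to C4 (3.40 to 3.58). Cldn11 was 3.20 in Co9, above its values in Co3 to Co5 (2.80 to 2.90), and the mean of its middle fractions minus that of its caudal ones was 0.20 in Co and -0.10 in C. The contrast of pairs c6 to c9 with pairs c2 to c4 was chosen after these values were seen, and in it 46.0% of all probes were called in either direction. The median difference of all probes was -0.14. Mbp (-0.48 ± 0.14), Mobp (-0.52 ± 0.18) and Ugt8a (-0.52 ± 0.15) were lower in the middle pairs, with adjusted p-values of 0.00543, 0.0175 and 0.0068. The other 5 were not called: Mog gave -0.40 (adjusted p = 0.159), Mag -0.32 (adjusted p = 0.0687), Cnp -0.23 (adjusted p = 0.0727), Mal 0.26 ± 0.15 (adjusted p = 0.178) and Cldn11 0.05 ± 0.13 (adjusted p = 0.771). No test compared the members with each other. Which members were called changed with the probe and the scaling. The second probe of Mag was called (-0.55 ± 0.19, adjusted p = 0.0189). Those of Mobp (-0.32 ± 0.20, adjusted p = 0.192) and Ugt8a (-0.50 ± 0.34, adjusted p = 0.236) were not. Scaled to the array medians, the first Mobp probe was not called (adjusted p = 0.067). The Mbp difference was -0.76 in C and -0.21 in Co. Without the C mouse, 0 of the 8 members were called, and the other alternatives gave 0 to 5.

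Across the sagittal plane the members were lower at both sides of the brain than from S3 to S7. Mbp ran from 5.49 in S1 through a median of 7.06 to 7.33 in S7, and from 5.75 in So1 through 6.74 to 7.07 in So8. Mobp ran from 1.20 in S1 through 2.65 to 2.99 in S4, and from 0.90 in So1 through 2.45 to 3.09 in So7. Mal ran from 1.87 in S1 through 3.43 to 3.72 in S4, and from 1.57 in So1 through 3.18 to 3.66 in So7. These 3 genes were lowest in the leftmost fraction of both brains. Mog ran from -2.09 in S1 through -0.25 to 0.15 in S7, and from -1.07 in So1 through 0.02 to 0.74 in So7. Mag ran from 3.30 in S1 through 5.32 to 5.88 in S4, and from 3.72 in So1 through 5.18 to 5.80 in So8. Cldn11 ran from 1.42 in S1 through 3.12 to 3.30 in S4, and from 1.37 in So1 through 2.58 to 3.00 in So7. In the S brain the glycoproteins and the junction gene had their highest value in S4 or S7 and not in the middle fraction S5. Cnp ran from 3.38 in S1 through 4.94 to 5.18 in S4, and from 3.69 in So1 through 4.65 to 5.16 in So8. Ugt8a ran from -0.66 in S1 through 1.44 to 1.69 in S4, and from -0.79 in So1 through 1.13 to 1.75 in So8. All 8 members were lower in S5 than in S4, and lower in So6 than in So7.

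The 3 midline pairs (s4 to s6) were higher than the 4 outer pairs (s1, s2, s8 and s9) for 8 of 8 members, against 10.6% of all probes tested. Pairs s3 and s7 stood in neither group. The mean of s7 was the highest of the sagittal pairs for all 8 members, and the middle pair s5 lay below s3 and s7. For Mag the mean was 5.36 in s5 and 5.79 in s7. The contrast thus sets a broad middle against the sides and shows no peak in the middle pair s5. Which pair held the anatomical midline was not tested. The differences ranged from 0.66 ± 0.14 for Mbp (adjusted p = 0.000747) to 1.23 ± 0.15 for Ugt8a (adjusted p = 4.43e-07), a 2.34-fold difference. Without the S mouse, Mbp (0.395) and Mobp (0.76) were not called, and the other 6 were. The median of the 8 was 0.95, beside 0.00 for all probes. Scaled to the array medians, 31.7% in place of 54% of all calls were higher at the midline, and the 8 members were still called higher. The 6 midline fractions did not overlap the 8 outer ones for 8 of 8 members, beside 4.68% of all probes. The difference was larger in S (median 1.13) than in So (median 0.78), and the test of that gap called 0 of the 8 members (adjusted p 0.733 to 0.922), beside 0.00547% of all probes.

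The left fractions (s1 to s4) and the right ones (s6 to s9) did not differ past the threshold for any of the 8 members, and 0.153% of all probes were called there. All 8 values were slightly lower on the left, from -0.08 for Mal to -0.28 for Mbp, with adjusted p-values of 0.625 to 0.968. Genes of the hypothalamus, which lies at the midline, were lower on the left for 4 of 5, among them Avp (-2.93 ± 0.36, adjusted p = 6.92e-05), as was the serotonin transporter gene Slc6a4 (-2.30 ± 0.43, adjusted p = 0.01). Their part in the values of the members was not tested. The leftmost paired fraction, S1, was hybridised and scanned with the So arrays, on another slide and day than S2 to S9. It was lower than its partner So2 by 0.51 for Cldn11 and by 1.40 for Mog, and its level lay nearer to that of the unpaired So1 for all 8 members.

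**Figure D2:**
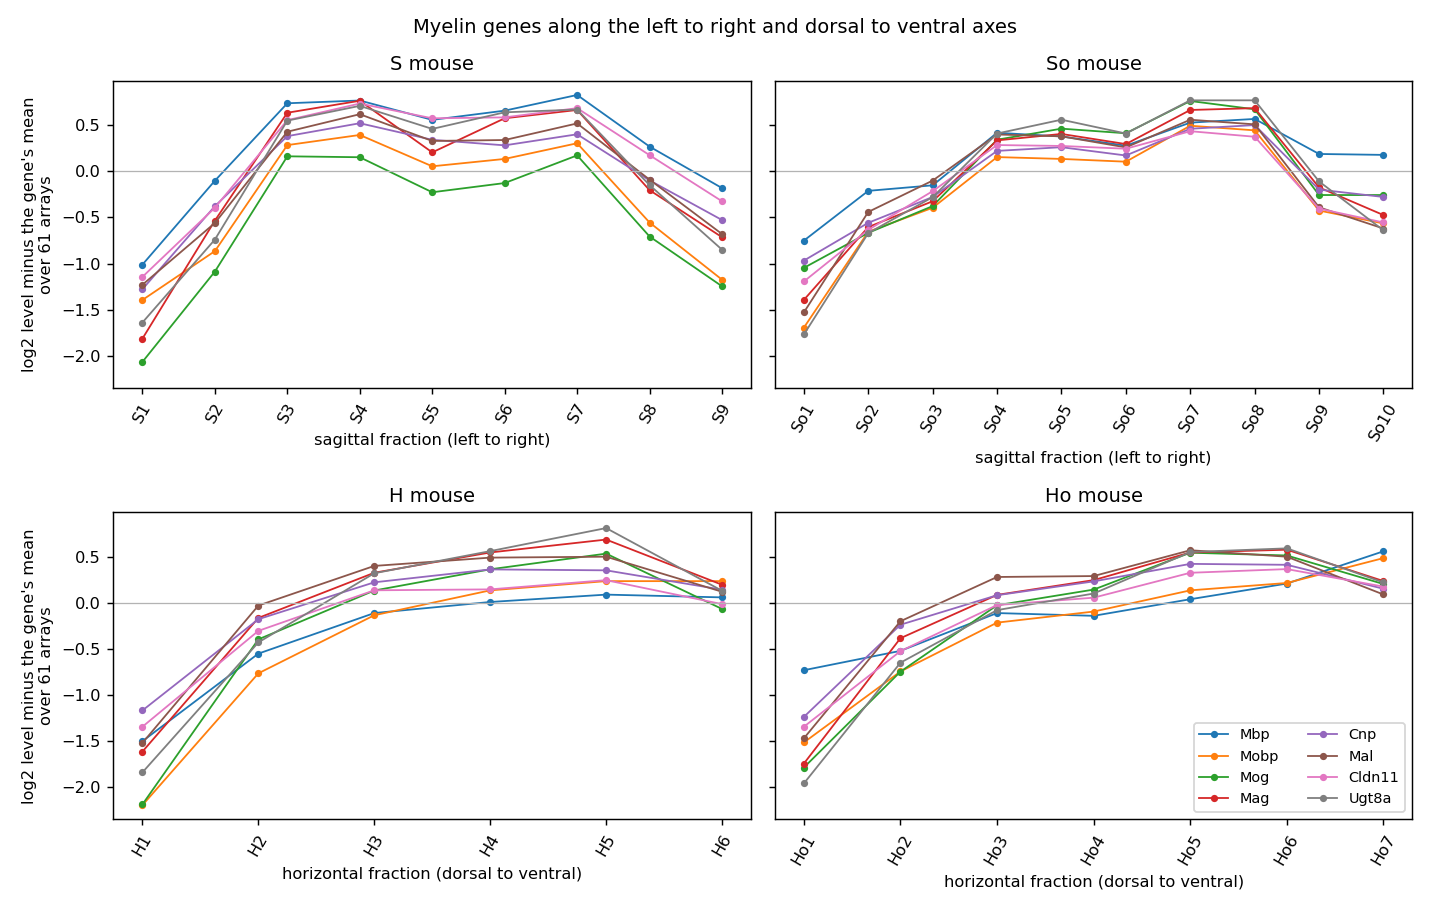
Log2 level of each of the 8 members minus its mean over the 61 arrays (vertical axis) in the sagittal fractions from left to right (top) and the horizontal fractions from dorsal to ventral (bottom), 1 panel per mouse and 1 point per array. All 8 lines are lowest in S1 and So1 and in H1 and Ho1. In S9 and So10 they lie below the middle fractions, with Mbp falling least in So10, and the horizontal lines have no second low end.

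Along the dorsal to ventral axis the members rose steeply over the first fractions. Mobp ran from 0.40 in H1 through a median of 2.60 to 2.83 in H6, and from 1.08 in Ho1 through 2.50 to 3.08 in Ho7. Mbp ran from 5.00 in H1 through 6.45 to 6.59 in H5, and from 5.77 in Ho1 through 6.39 to 7.06 in Ho7. Mal ran from 1.58 in H1 through 3.36 to 3.60 in H5, and from 1.63 in Ho1 through 3.38 to 3.67 in Ho5. By these probes Mobp and Mbp had their highest value in the most ventral fraction of the Ho brain. The second Mobp probe was highest in Ho6 and in H4, before the end of the axis. Mog ran from -2.21 in H1 through 0.01 to 0.51 in H5, and from -1.81 in Ho1 through 0.12 to 0.52 in Ho5. Mag ran from 3.50 in H1 through 5.38 to 5.80 in H5, and from 3.37 in Ho1 through 5.35 to 5.69 in Ho6. Cldn11 ran from 1.22 in H1 through 2.62 to 2.81 in H5, and from 1.22 in Ho1 through 2.62 to 2.93 in Ho6. These genes had their highest value before the end of the axis. Cnp ran from 3.49 in H1 through 4.84 to 5.02 in H4, and from 3.42 in Ho1 through 4.81 to 5.08 in Ho5. Ugt8a ran from -0.86 in H1 through 1.20 to 1.79 in H5, and from -0.98 in Ho1 through 1.08 to 1.57 in Ho6. The lowest fraction was H1 and Ho1 for all 8.

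The 2 ventral pairs (h5 and h6) were higher than the 2 dorsal pairs (h1 and h2) for 8 of 8 members, against 8.47% of all probes tested. Mobp differed most (2.42-fold, 1.27 ± 0.23, adjusted p = 0.000208), followed by Ugt8a (2.28-fold, 1.19 ± 0.20, adjusted p = 7.97e-05). Cnp differed least (1.56-fold, 0.64 ± 0.14, adjusted p = 0.00138). Of all calls 59.3% were higher ventrally, and 44.4% when scaled to the array medians. The 4 ventral fractions did not overlap the 4 dorsal ones for 6 of 8 members, beside 11.0% of all probes, and the exceptions were Mog and Mal. The median difference was 1.22 in H and 0.63 in Ho, and the test of that gap called 0 of the 8 members (adjusted p 0.253 to 0.867), beside 0.0219% of all probes. In the pairing, H1 was matched with Ho2. Mog was -2.21 in H1, -1.81 in Ho1 and -0.77 in Ho2, so that H1 lay nearer to the unpaired Ho1. The paired dorsal and ventral fractions of either brain lay on different slides. When slide was fitted as a fixed block, 0 of the 8 differences passed the threshold (0.14 for Mal to 0.78 for Mobp). Without the H mouse, 0 of the 8 members passed the threshold. Mal (0.67 ± 0.20, adjusted p = 0.0222) was not called when the arrays were scaled to their medians (adjusted p = 0.0512).

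From the next to last to the last ventral pair (h6 minus h5), a contrast chosen after the values were seen, the members did not move together. Mbp and Mobp gave 0.16 ± 0.26 and 0.14 ± 0.33, and the other 6 members were negative, from -0.23 for Cldn11 to -0.52 for Ugt8a. None of the 8 was called (adjusted p 0.735 to 1), beside 0.189% of all probes. The second probe of Mbp gave 0.31 ± 0.47 and that of Mobp -0.30 ± 0.37, so that Mobp had no settled sign there.

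**Figure D3:**
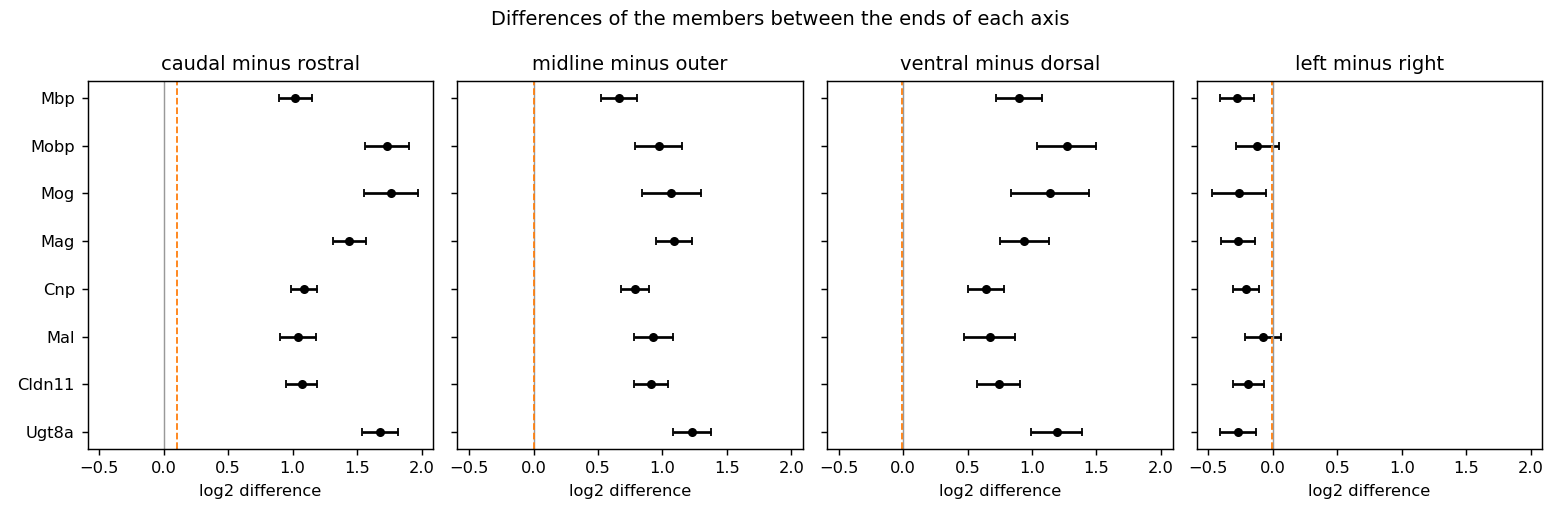
Log2 difference between the ends of each axis (horizontal axis) for the 8 members (vertical axis), with bars of 1 SE from the limma fit over 28 pairs, a grey line at 0 and a dashed line at the median of all 36573 probes. Caudal minus rostral, midline minus outer and ventral minus dorsal differences are all above 0, and left minus right differences are all below 0 and none passed the threshold.

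Mbp was read by 3 probes, and 1 of them ran the other way. The second probe followed the first with a larger range, from 2.06 in C13 to 5.91 in C1, and its caudal to rostral difference was 1.79 ± 0.23, against 1.02 ± 0.13 for the first. The first probe was the brightest of the members, with a mean intensity of 125485 units, and the second had 22280. The third probe, with a mean intensity of 8149, is annotated to another RefSeq transcript of Mbp than the first 2. The Mbp locus is known to give both the classic myelin transcripts and the golli transcripts, which start further upstream and are also made in neurons. Which transcripts the third probe binds was not tested, since no probe sequence was used here.

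In C1 and Co1, where the other 2 probes were highest, the third was lowest. It ran from 1.53 in C1 through a median of 2.60 to 2.91 in C6, and from 1.67 in Co1 through 2.34 to 3.12 in Co7. It was highest in the outer fractions of the sagittal brains (3.40 in S1 and 2.99 in So2) and lowest at S6 (2.29) and So7 (2.26). In the horizontal brains it fell from 3.78 in H1 to 2.56 in H5, and from 3.75 in Ho1 to 2.52 in Ho6. The third probe thus peaked at middle positions of the coronal axis, in the most dorsal horizontal fractions and toward the sides. Its caudal to rostral difference was -0.57 ± 0.08 (adjusted p = 2.26e-07), its midline to outer difference -0.65 ± 0.08 (adjusted p = 4.94e-07) and its ventral to dorsal difference -0.72 ± 0.11 (adjusted p = 1.36e-05). Of all probes, 20.2%, 9.01% and 5.81% were called lower in these 3 comparisons. Its pairs c6 to c9 were 0.90 ± 0.08 above its pairs c2 to c4 (adjusted p = 1.09e-10).

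One step in the Mbp values coincided with a change of slide. Between C4 and C5 the first probe fell by 0.87, and the third rose by 0.84, while the second changed by -0.05. C4 was the last array of its slide and C5 the first of the next. The first probes of the other 7 members changed between -0.20 and 0.35 at that step. In the Co brain the first Mbp probe changed from 6.73 in Co4 to 6.72 in Co5, where the slide also changed. The fractions paired with C4 and C5 were Co5 and Co6, which lay on the same slide. From Co5 to Co6 the first probe stayed at 6.72, and the third rose from 2.04 to 2.69. The part of the slide in the Mbp step was not tested.

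**Figure D4:**
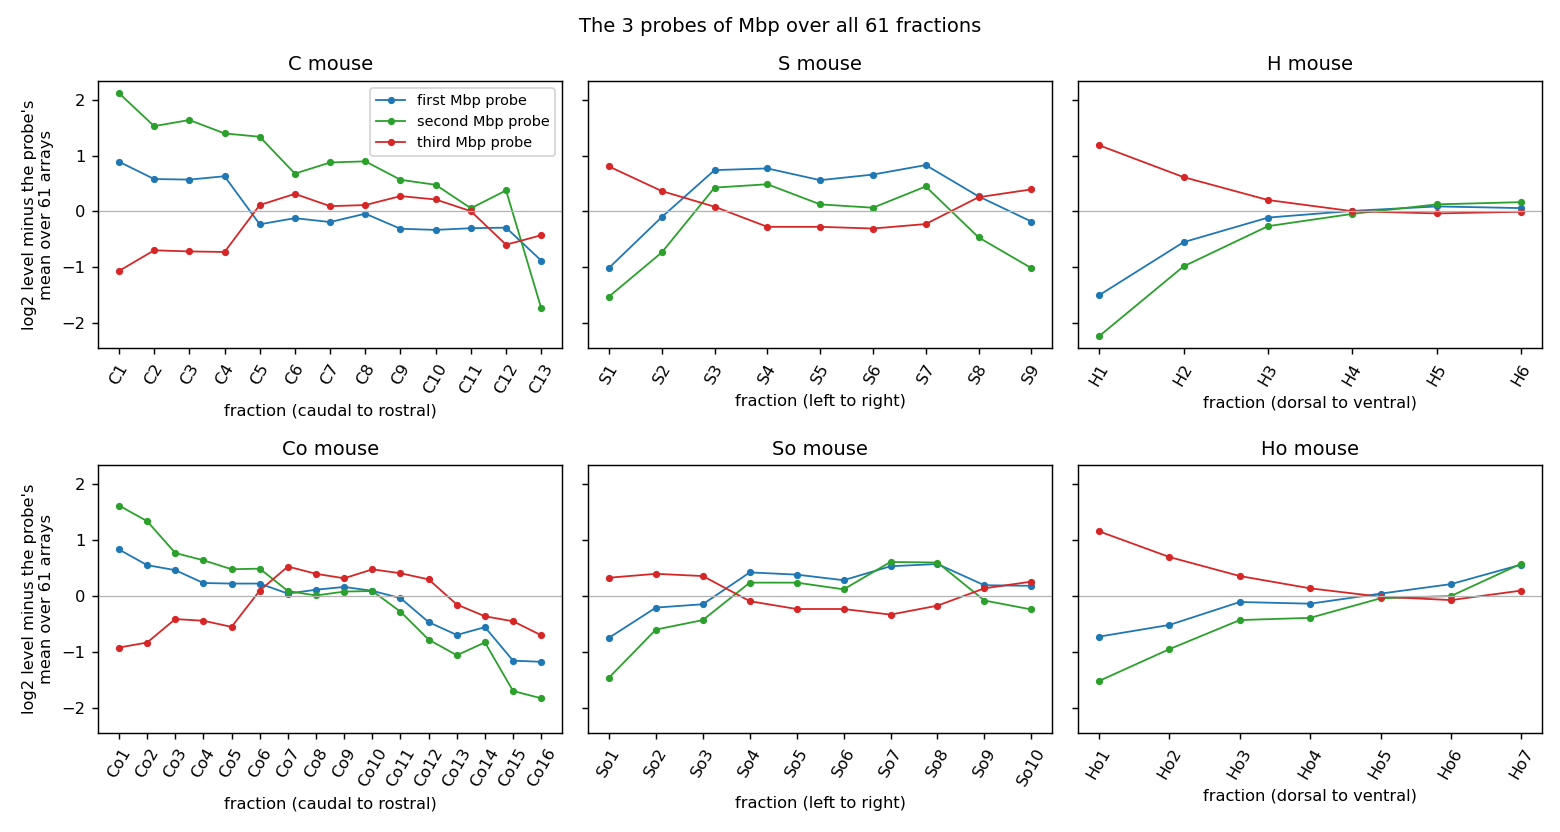
Log2 level of the 3 Mbp probes minus each probe's mean over the 61 arrays (vertical axis) in the fractions of the 6 mice (horizontal axis), 1 point per array. The first and second probes fall from C1 and Co1 and rise from H1 and Ho1, and the third is low in C1 and Co1 and highest in H1 and Ho1.

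Differences between the 2 mice of a plane were called for some members and had different signs. In a model with the 28 pairs and the mice, the F test over the 3 planes called 5 of the 8 members (Mobp, Mog, Mal, Cldn11 and Ugt8a), about the 63.1% of all probes that were called. Mog was lower in Co than in C by 0.44 ± 0.10 (adjusted p = 0.000363), in 12 of 13 pairs, and higher in So than in S by 0.68 ± 0.12 (adjusted p = 6.06e-05), in 9 of 9 pairs. Of all probes, 53.4% were called in the comparison of the coronal mice, 29.9% in that of the sagittal mice and 5.52% in that of the horizontal mice. Ugt8a, Mobp and Mal were lower in Co than in C, by 0.33 ± 0.09, 0.38 ± 0.10 and 0.34 ± 0.09. Cldn11 was higher there by 0.19 ± 0.08 (adjusted p = 0.0492). Leaving out a single fraction, for 38 of the 56, ended the call of Cldn11. Between Ho and H none of the 8 members was called (0.20 to 0.38, adjusted p 0.131 to 0.473). C and Co were scanned on different days throughout, and S and So on different days except for S1, so mouse and scan day cannot be told apart in those planes. The oblique cutting of So, Co and Ho also goes with the mouse, so mouse and cutting angle cannot be told apart in any plane.

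The second probes gave differences between mice of another size or sign. For Mobp the second probe was 0.15 ± 0.12 higher in Co than in C (adjusted p = 0.338) and 0.43 ± 0.15 lower in So than in S (adjusted p = 0.0288). Both signs were opposite to those of the first probe. The So minus S value of the first probe (0.23 ± 0.12) was itself not called (adjusted p = 0.134). For Ugt8a the second probe was lower in Co by 1.21 ± 0.09 (adjusted p = 5.17e-12), with the sign of the first, and for Mal it gave -0.15 ± 0.09 (adjusted p = 0.166), also with that sign. For Mbp the second probe was lower in Co by 0.76 ± 0.11, while the first gave -0.01 ± 0.10. The second Mag probe was higher in Co by 0.49 ± 0.11 and the first by 0.09 ± 0.10. By contrast, the axis differences of the second probes of Mbp, Mobp, Mag, Mal and Ugt8a all had the sign of the first. Of these 15 differences 14 passed the threshold, and the exception was the ventral to dorsal difference of Ugt8a (1.02 ± 0.45, adjusted p = 0.144). A difference between mice read from 1 probe, as for Mog, Cnp and Cldn11, had no second probe beside it.

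**Figure D5:**
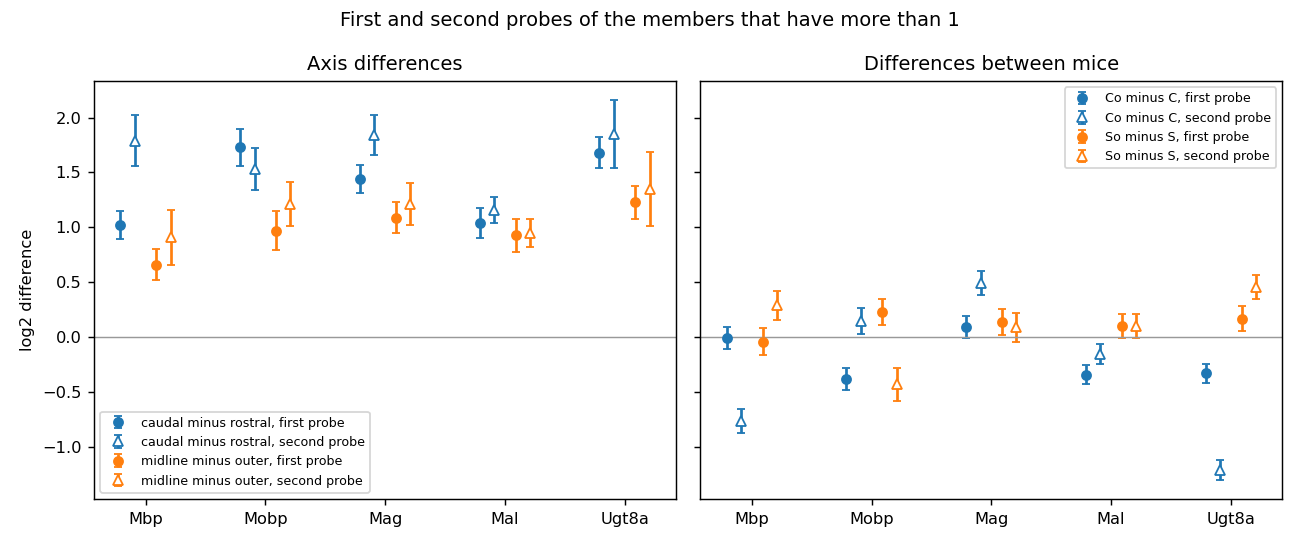
Log2 differences (vertical axis) of the first (filled circles) and second (open triangles) probes of the 5 members with more than 1 probe, with bars of 1 SE from limma. Caudal minus rostral and midline minus outer differences are positive for both probes of all 5 genes, and the differences between mice change in size or sign with the probe.

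The members were correlated within every brain. Over the 28 pairings of the 8 members, the median Pearson's r across the fractions of a brain was 0.99 in the S and H brains, 0.98 in So and Co, 0.97 in Ho and 0.94 in C. The lowest r was 0.61 in C and 0.70 in Ho. These values describe neighbouring fractions of 1 brain, which share tissue and slides, and carry no test. Against the mean of the 8 members, r averaged over the 6 brains was lowest for Mbp (0.94) and Mal (0.97). It was -0.68 for the third Mbp probe, ranging from -0.99 to -0.05.

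Of 15512 other genes with a detected probe, those nearest to the mean of the members by the same measure were Tmem88b (0.993), S1pr5 (0.990), Evi2a (0.989), Gpr37 (0.989), Depdc1b (0.988), Fa2h (0.986), Arsg (0.985), Tmem125 (0.985), Olfr1341 (0.984) and Trf (0.984). Fa2h is the hydroxylase that makes the 2-hydroxy fatty acids of myelin lipids, S1pr5 a sphingosine phosphate receptor of oligodendrocytes, and Trf transferrin, the iron carrier that oligodendrocytes make. Of the 10, 7 stand in the list of mature oligodendrocyte genes below, and Depdc1b, Arsg and the odorant receptor gene Olfr1341 do not. Olfr1341 was 1.76 higher in the caudal pairs on the log2 scale and 1.12 higher in the midline pairs. The 5 genes farthest in the opposite direction were Stard8 (-0.935), Bcl2l13 (-0.932), Trafd1 (-0.925), Zdhhc16 (-0.923) and Sumo2 (-0.922). With Spearman's rho in place of Pearson's r, 4 of the first 10 genes were shared.

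Other genes of mature oligodendrocytes and myelin followed the members. Of the 33 measured, 31 were higher caudally (median 1.23), 32 near the midline (median 0.97) and 28 ventrally (median 0.84), and 0 were lower. Of all probes 27.5% were higher caudally, 10.6% near the midline and 8.47% ventrally. Klk6, a protease of mature oligodendrocytes, showed the largest differences (3.16 ± 0.34 caudally, 2.45 ± 0.36 at the midline and 3.26 ± 0.48 ventrally). The 2 genes not called caudally, named after their values were seen, were Apod (0.23 ± 0.12) and Efnb3 (0.10 ± 0.10). The gene not called at the midline was Omg (-0.12 ± 0.05).

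Among 7 measured transcription factors of the lineage, 6 were higher caudally, 5 near the midline and 4 ventrally, with 1 lower ventrally. The shares of all probes were 27.5%, 10.6% and 8.47% higher, and 5.81% lower ventrally. St18 had the largest caudal difference (3.73 ± 0.16) and was the one that was lower ventrally (-0.69 ± 0.22, adjusted p = 0.0337). Olig1, a factor of precursors and oligodendrocytes alike, was higher on all 3 axes, by 0.32, 0.64 and 0.72. Nkx6-2, a homeobox factor of oligodendrocytes, was also higher on all 3 (1.74, 1.37 and 1.47).

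Genes of precursors and newly formed oligodendrocytes were called in both directions. Of 12 measured, 4 were higher caudally and 5 lower, with a median of -0.24, beside 27.5% of all probes higher and 20.2% lower. The 4 higher genes were Enpp6 (1.76 ± 0.26), a choline phosphodiesterase of newly formed oligodendrocytes, Bcas1 (1.61 ± 0.19), C1ql1 (0.67 ± 0.15) and Itpr2 (0.19). The 5 lower genes, named after their values were seen, were Pdgfra (-0.37 ± 0.07), the growth factor receptor that defines precursors, Gpr17 (-0.52 ± 0.08), Bmp4 (-0.49), Sox6 (-0.26) and Tnr (-0.79 ± 0.09). At the midline 4 of the 12 were higher and 0 lower, beside 10.6% of all probes higher. Ventrally 6 were higher and 0 lower, beside 8.47% higher, with Pdgfra among the 6 (0.52 ± 0.10, adjusted p = 0.000508).

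Lipid synthesis was mixed in size. Of 15 measured genes of cholesterol and long-chain lipid synthesis, 11 were higher caudally and 2 lower, 5 were higher at the midline and 9 ventrally. The shares of all probes were 27.5% and 20.2% caudally, 10.6% at the midline and 8.47% ventrally. The median caudal difference was 0.28. The fatty acid elongase Elovl7 gave 1.10 ± 0.17 caudally and its relative Elovl1 0.86 ± 0.16.

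The neurofilament genes, listed here as genes of large axons, were mostly called in the directions of the members. Their values are RNA levels of a fraction and do not measure its axons. All 4 were higher caudally (median 1.70), 4 of 4 at the midline and 3 of 4 ventrally, led by Nefh (2.52 ± 0.13 caudally). The gene not called ventrally was Ina (-0.20 ± 0.11, adjusted p = 0.315). Of all probes 27.5%, 10.6% and 8.47% were higher in these comparisons. Their summed level relative to the 75th percentile of the array was 87.6 to 140 in the 8 caudal fractions and 22.5 to 50.1 in the 8 rostral ones. Of 10 genes of the node and paranode, 7 were higher caudally and 1 lower, beside 27.5% and 20.2% of all probes. Cntn2, an adhesion protein beside the paranode, gave 1.55 ± 0.14 caudally, 0.74 ± 0.15 at the midline and 0.06 ± 0.20 ventrally.

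Lists of glial, vascular and pan-neuronal markers were called on the 3 axes to different extents. Of all probes 27.5% were higher and 20.2% lower caudally. The shares were 10.6% and 9.01% at the midline, and 8.47% and 5.81% ventrally. Microglial genes were lower caudally for 9 of 9 (median -1.06) and lower at the midline for 6, and higher ventrally for 5. Their summed level was 17.4 to 36.7 caudally and 36.0 to 48.4 rostrally. Astrocyte genes were higher caudally for 6 of 10 (median 0.67), at the midline for 2, with 1 lower, and ventrally for 3, with summed levels of 317 to 365 caudally and 154 to 259 rostrally. The astrocyte transporter gene Slc7a10, named after its values were seen, was the only gene of the 10 called higher on all 3 axes (1.06, 0.49 and 0.42). Gfap was not called at the midline (0.47 ± 0.21, adjusted p = 0.127), and Slc1a2 was lower there (-0.46 ± 0.11, adjusted p = 0.00166). Aldh1l1, Slc1a3 and Gja1 were not called on any axis. Pan-neuronal genes were lower caudally for 5 of 10 and higher for 2, with summed levels of 244 to 255 and 235 to 342. Endothelial genes were higher caudally for 4 of 10 and lower for 1, and 0 of 10 were called on the other 2 axes. The endothelial counts and the astrocyte counts at the midline lay near the shares of all probes.

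Peripheral nerve and choroid plexus could be carried in some fractions. Of 6 measured genes of Schwann cell myelin, 3 were higher caudally and 2 lower, beside 27.5% and 20.2% of all probes. The summed level of the 6 was 8.74 to 15.9 caudally and 6.82 to 9.54 rostrally, and Egr2, which is also an activity gene of neurons, gave -5.74 ± 0.35. Ncmap, a protein of noncompact myelin, gave 1.69 ± 0.16 caudally. Choroid plexus genes were higher caudally for 5 of 5 (median 2.06) and ventrally for 5 of 5, with summed levels of 0.851 to 29.7 caudally and 1.1 to 3.19 rostrally. Ventrally 8.47% of all probes were higher. The part of these tissues in the values of the members was not tested.

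Position markers varied along the labelled directions. Of all probes 27.5% were higher and 20.2% lower caudally, 10.6% and 9.01% at the midline, and 8.47% and 5.81% ventrally. Of 5 hindbrain genes 5 were higher caudally (median 4.29), 5 at the midline (median 1.69) and 5 ventrally (median 2.40), the 3 directions of the members. Of 3 genes of midline serotonin neurons, 3 were higher caudally, 2 at the midline and 2 ventrally. Of 5 olfactory bulb genes 4 were lower caudally, and of 5 hypothalamic genes 5 were higher at the midline (median 4.99) and ventrally (median 7.10). Cortical genes were lower caudally for 4 of 5, at the midline for 5 of 5 and ventrally for 4 of 5, the reverse of the members. The part of these regions in the values of the members was not tested. The 75th percentile of the arrays lay between 740 and 1971 intensity units, with 57.9% to 73.1% of probes well above background.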

How the data were processed

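RNA of 61 brain fractions from 6 mice was hybridised to 1-colour Agilent whole mouse genome arrays. Per the file headers, the deposited intensity of each spot comes from Agilent Feature Extraction 9.1.3.1, background-subtracted and not normalized between arrays. The headers and the methods give different design numbers, and the headers were followed. The authors also deposited an intensity table normalized per array, used as an alternative. For each of 41174 probes, the mean log2 intensity of its spots was taken, and the 75th percentile of that array was subtracted. The 36573 probes with a spot well above background on at least 1 array were tested with limma 3.58.1 in R 4.3.3 (lmFit and eBayes, 28 residual degrees of freedom, Benjamini-Hochberg over all probes, adjusted p below 0.05), in place of the one-way ANOVA of the methods. Labels number the S fractions 2 to 10, renumbered here as 1 to 9.

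Members and gene lists were chosen with earlier results of these data known. Named genes were the members, 2 to 4 genes of each list (the first and those with the largest differences), every precursor gene called caudally, a few genes named after their values were seen (Slc7a10, Avp and Slc6a4 among them), and the 10 genes nearest to and 5 farthest from the members. Some genes that this rule names are not reported here, and they stay in the counts of their lists. None of the spots of the members was flagged as an outlier. The median SD between spots of a probe was 0.064 on the log2 scale, so the number of mice and arrays limits the precision. No column of the deposited table was left unused. The labels give each brain 1 mouse, and fractions of 1 mouse deviated together from their pair means (median r over their pairings 0.23 in the sagittal, 0.33 in the coronal and 0.11 in the horizontal brains). The models were tested on simulated data.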

Additional observations from a re-analysis of the deposited data

Results flagged for a closer look

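In 9 of 32 sets of 6 to 10 fractions (a member in S, So, H or Ho), the lowest fraction stood apart from the rest by more than Dixon's critical value. Chance flags about 1 in 20 such sets, and fractions along an axis are positions and not replicates. All 9 were the first fraction of a series. The gap to the next fraction, as a share of the whole range, was 0.658 for Mog, 0.631 for Mag, 0.645 for Cnp, 0.737 for Mal and 0.65 for Cldn11 in H1. In Ho1 it was 0.584 for Mag, 0.602 for Cnp and 0.624 for Mal. In So1 it was 0.476 for Mobp. Ho1 and So1 entered no pair. No test of a difference between the mice of a plane along an axis called a member.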

How the results depend on the processing

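With median scaling, normexp and quantile normalization, the normalized table of the authors, all probes, only probes above background on all arrays, no moderation, slide as a random block, scan day as a fixed block or narrower ends of the axes, 8 of 8 members kept their call over the pairs and in the caudal and midline comparisons, and 7 or 8 in the ventral one, while 0 were called between left and right. With the slide as a fixed block, 0 of 8 were called caudally, 0 ventrally and 0 in the comparison of middle with caudal pairs, beside 3 without a block. Slide and scan day as fixed blocks could not be fitted to the differences between mice. With the mouse as a replicate block within the pairs, 8, 8 and 8 members were called on the 3 axes and 5 in the comparison of middle with caudal pairs. That count was 2 to 5 without 1 fraction and 0 to 5 without 1 mouse (0 without C), 5 after normexp and 5 with fractions paired by their own number. That pairing called 3 members between mice, beside 5. Without 1 fraction, 8 members were called caudally, 8 at the midline, 6 to 8 ventrally and 5 or 6 between mice. Without 1 mouse, the counts were 8 caudally, 6 to 8 at the midline (6 without S, ending the calls of Mbp and Mobp) and 0 to 8 ventrally (0 without H). The second Mobp probe gave the opposite sign in both differences between mice. These were 0.15 for Co minus C, which was not called, and -0.43 for So minus S, where the first probe was not called. The third Mbp probe reversed the caudal (-0.57), midline (-0.65), ventral (-0.72) and middle minus caudal (0.90) differences. Its Co minus C was 0.20, beside -0.01 for the first probe, which was not called. The causes were not tested. With Spearman's rho 4, and with median scaling 9, of the 10 most similar genes were shared. With 2 mice per plane, small differences between them may have gone uncalled.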
